A study of Mus musculus with 30 samples.

Results

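Hepatic transcripts of 6 zinc-handling genes were followed across 5 diets that differed in protein source, protein amount and sulfur amino acids. The 6 genes were the zinc importers *Slc39a4* and *Slc39a14*, the exporters *Slc30a1* and *Slc30a10*, and the metallothioneins *Mt1* and *Mt2*. They were taken by gene symbol from a table of 14173 genes, all 6 were present, and all 6 passed the filter on low counts in every comparison. *Slc39a4* had been picked because its transcript rose in mice fed the low soy diet, so its values on the soy diets are given as a description and were not tested, whereas its response to casein restriction was tested.

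The livers came from 30 male C57BL/6J mice that were 6 months of age, had eaten their diet for 12 weeks and were fasted for 4 h, with 6 mice per diet. Cas-20% contained 20% casein with 0.57 g methionine and 0.41 g cysteine per 100 g of diet, and Cas-5% contained 5% casein with 0.15 g methionine and 0.1 g cysteine. Soy-20% contained 20% soy protein with 0.22 g methionine and 0.22 g cysteine, and Soy-20% + SAA was the same diet with sulfur amino acids added to 0.58 g methionine and 0.41 g cysteine. Soy-10% contained 11.5% soy protein with 0.13 g methionine and 0.13 g cysteine. The mineral mix was added in the same amount to each diet, but calcium carbonate and calcium phosphate differed among diets. The paper reports higher food intake under casein and soy restriction. Zinc intake is therefore not known to be equal, and zinc itself was not analysed here.

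Zinc enters the cytosol through importers of the ZIP family (*Slc39a* genes) and leaves it, into organelles or out of the cell, through exporters of the ZnT family (*Slc30a* genes). Metallothioneins are small proteins rich in cysteine that bind zinc and copper, and their transcription follows free zinc through the metal-sensing factor MTF-1, which binds metal response elements in promoters. In liver, metallothionein transcripts are also known to respond to glucocorticoids and to inflammation.

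Because the metallothionein genes and *Slc30a1* are classical targets of MTF-1, the RefSeq promoters that could be matched are shown, with the core of the metal response element in capitals (TGCACNC or TGCGCNC, either strand). Promoters of 4 of the 6 genes were matched, each 300 bases long from 250 bases before to 50 bases after the start, in build GRCm38.p6 on the + strand; *Slc39a4* and *Slc39a14* had no entry. They lie at chr8:94172368-94172667 (*Mt2*), chr8:94178839-94179138 (*Mt1*), chr1:191906531-191906830 (*Slc30a1*) and chr1:185454598-185454897 (*Slc30a10*).
Mt2: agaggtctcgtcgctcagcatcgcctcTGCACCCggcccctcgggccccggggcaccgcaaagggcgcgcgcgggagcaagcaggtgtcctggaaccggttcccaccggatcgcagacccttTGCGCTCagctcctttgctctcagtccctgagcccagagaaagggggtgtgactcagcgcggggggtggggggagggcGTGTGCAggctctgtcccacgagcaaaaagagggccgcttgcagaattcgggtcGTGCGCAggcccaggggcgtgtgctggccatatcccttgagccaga
Mt1: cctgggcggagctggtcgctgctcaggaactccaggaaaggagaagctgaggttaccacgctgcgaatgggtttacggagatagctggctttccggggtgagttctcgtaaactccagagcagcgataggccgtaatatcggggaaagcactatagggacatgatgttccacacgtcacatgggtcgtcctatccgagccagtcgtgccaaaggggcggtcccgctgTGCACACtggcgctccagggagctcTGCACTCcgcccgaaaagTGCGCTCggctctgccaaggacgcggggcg
Slc30a1: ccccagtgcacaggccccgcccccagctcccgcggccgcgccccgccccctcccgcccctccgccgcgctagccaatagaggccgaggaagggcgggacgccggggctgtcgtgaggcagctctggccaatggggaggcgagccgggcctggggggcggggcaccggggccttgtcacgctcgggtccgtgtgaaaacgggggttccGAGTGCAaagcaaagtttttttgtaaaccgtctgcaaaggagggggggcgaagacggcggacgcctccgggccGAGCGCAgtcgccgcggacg
Slc30a10: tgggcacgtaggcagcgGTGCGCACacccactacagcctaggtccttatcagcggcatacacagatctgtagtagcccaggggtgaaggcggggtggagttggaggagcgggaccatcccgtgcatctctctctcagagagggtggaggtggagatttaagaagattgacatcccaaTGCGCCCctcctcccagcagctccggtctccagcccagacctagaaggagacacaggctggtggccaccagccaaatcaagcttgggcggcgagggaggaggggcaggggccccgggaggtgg
The *Mt2* promoter held 4 matches, and 0.517% of the 32851 promoters held as many or more. The *Mt1* promoter held 3, clustered around the start annotated in this promoter set, and other starts were not looked at. *Slc30a10* held 3 in 2 separate stretches, since the first stretch reads as a match on each strand. Of all promoters 1.97% held 3 or more. The *Slc30a1* promoter held 2, and 7.11% of promoters held 2 or more. A match describes letters in this window and is not evidence of binding, and 25.7% of all promoters held at least 1.

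Sequencing yielded between 7694015 and 14565542 counts per liver (median 10803734), and values are given as deposited normalized counts, which are counts divided by a size factor for each library. Hepatocyte markers were strongly expressed in each liver, 7 of 7 present and together 63813.7 to 94463.1 CPM (counts scaled by the library total). Some libraries stood apart. Among the Cas-20% livers, deviations from the diet mean were correlated across 11986 genes with the 6 genes left out. The correlations were -0.44 to -0.25 between libraries 1 to 3 and libraries 4 to 6, and -0.12 to 0.19 within these sets. Deviations from a shared mean of 6 livers correlate negatively in part by construction. The negative sign between the sets alone therefore does not show opposite directions. In Soy-20% + SAA, counts in libraries 3 to 6 rose with the GC content of the last 200 bases of the transcript (log2 slopes per 10 percentage points of GC 0.062 to 0.215, and -0.064 to 0.026 in the other 26 livers). Soy-10% liver 4 contained pancreatic acinar transcripts, 9 of 12 markers in the table and together 780.2 CPM, against less than 1 CPM in each other liver. Several results that rest on these libraries are given with and without them.

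*Slc39a4* (ENSMUSG00000063354, chr15:76612383-76617384, GRCm38, minus strand) encodes ZIP4, the importer best known for zinc uptake across the intestinal epithelium, whose loss in humans causes the zinc deficiency disorder acrodermatitis enteropathica. Its hepatic transcript was higher on both low protein diets. On Cas-20% the normalized counts were 142.1 at the lowest, 206.1 at the median and 236 at the highest of 6 livers, and on Cas-5% they were 266.3, 373.5 and 475.9. Each Cas-5% liver therefore exceeded each Cas-20% liver, and only 5.14% of the 12076 genes tested separated upward in this way. Casein restriction raised *Slc39a4* 1.91-fold (log2 fold change 0.93 ± 0.15 SE, n = 6 per diet, edgeR adjusted p = 0.00019). At that threshold 24.9% of genes tested were called and 11.6% were called higher, so *Slc39a4* was 1 of many transcripts that rose. The change was 0.82 without Cas-20% libraries 1 to 3 and 1.04 without libraries 4 to 6. The summed hepatocyte markers (64570.3 to 71628.8 CPM on Cas-20% and 76257 to 94463.1 CPM on Cas-5%) were also higher on Cas-5% with no overlap. So were the summed endothelial and stellate cell markers (7 of 7 present, 317.3 to 430.6 CPM and 436.5 to 569.7 CPM). *Alb* (mean normalized counts 467086.8 and 589763.8) and *Dcn* (2948.9 and 3633.9) carried these sums. Means of *Hnf4a*, *Serpina1a*, *Stab2*, *Lrat*, *Col1a1* and *Col3a1* were also higher on Cas-5%. Those of *Apoa1*, *Ttr*, *Cps1*, *Cyp2e1*, *Pecam1* and *Cdh5* were lower. The part of these markers in the *Slc39a4* result was not tested.

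On the soy diets *Slc39a4* was lowest with added sulfur amino acids and highest under restriction. The normalized counts were 100.7, 125.3 and 193.5 (lowest, median and highest) on Soy-20% + SAA. They were 130.6, 195.1 and 305.3 on Soy-20%, and 436.7, 502.1 and 611.9 on Soy-10%. Soy-10% livers were all above the livers of both soy controls, which overlapped each other. The level on Soy-10% was 3.61-fold that on Soy-20% + SAA (log2 1.85 ± 0.16 SE) and 2.42-fold that on Soy-20% (log2 1.27 ± 0.18 SE). These contrasts chose the gene, and no test is given. For reference, 2.9% of genes in the first contrast and 0.597% in the second separated upward. Leaving out Soy-20% + SAA libraries 3 to 6 gave a log2 difference of 2.10, and Soy-10% liver 4, with its acinar RNA, held 475.5 normalized counts, inside the range of its diet.

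Ordered by median, *Slc39a4* ran from Soy-10% through Cas-5%, Cas-20% and Soy-20% to Soy-20% + SAA. Neighbouring diets overlapped in each step but that from Cas-5% to Cas-20%. The log2 rise in casein was 0.92 ± 0.22 (SE) smaller than the rise in soy against Soy-20% + SAA, and 0.34 smaller when Soy-20% was the soy control, again as a description. The absolute levels of the restricted diets were closer, with Soy-10% above Cas-5% by 0.39 ± 0.12 on the log2 scale. In whole liver, more RNA per cell and more cells of a given type cannot be told apart. Of 8 enterocyte markers 3 were in the table, with *Vil1*, *Lct*, *Sis*, *Alpi* and *Cdx2* not in it. The sum of the 3, carried by *Fabp2* and *Apoa4*, which hepatocytes also make, was 435.3 to 1152.6 CPM on Cas-20% and 186.6 to 395.8 CPM on Cas-5%, and 352.4 to 1379.4 CPM on Soy-20% + SAA and 182.1 to 328 CPM on Soy-10%. The other marker, *Slc5a1*, went the other way, at 6.757 to 10.23 normalized counts on Cas-20% and 30.67 to 58.97 on Cas-5%, and at 3.872 to 24.84 on Soy-20% + SAA and 11.17 to 21.9 on Soy-10%. The part of these transcripts in the *Slc39a4* differences was not tested.

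**Figure D1:**
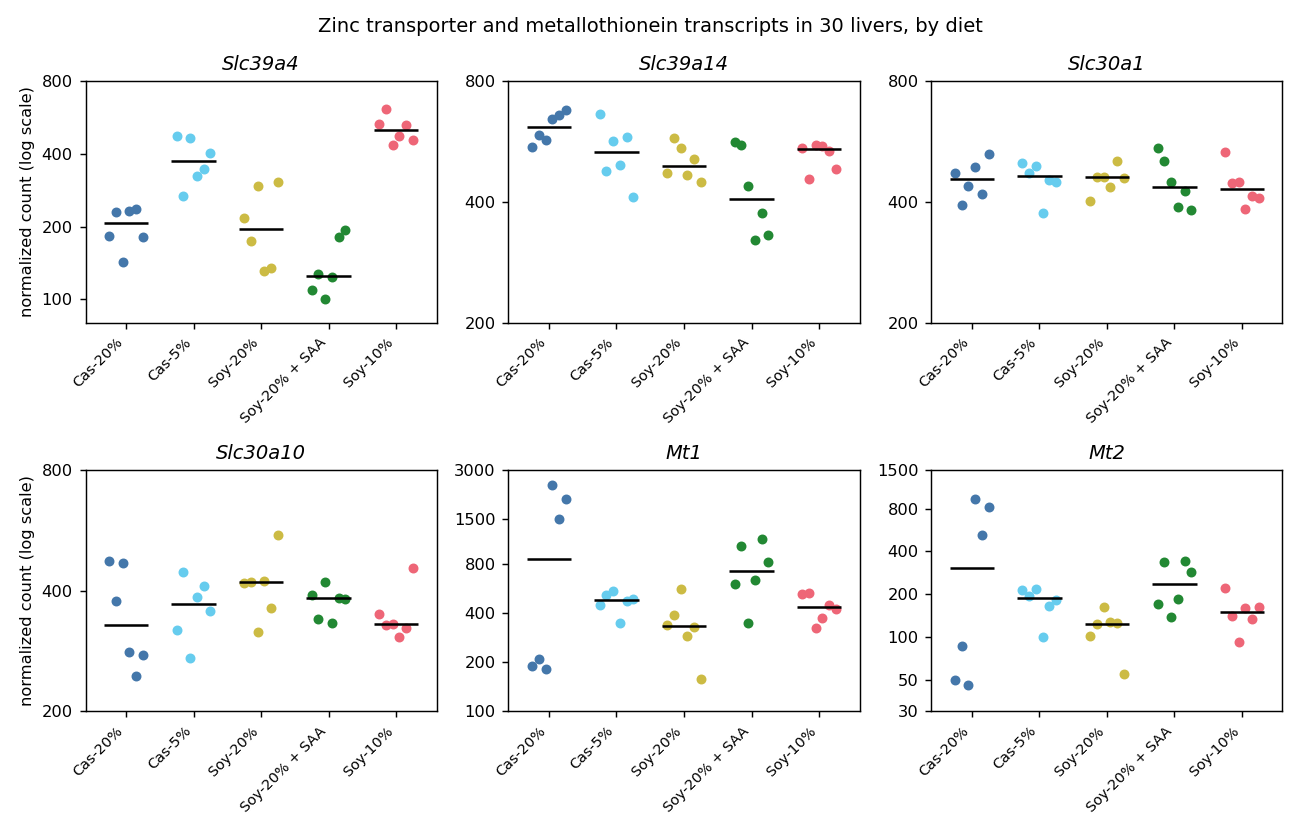
Normalized counts (log scale) of the 6 genes in each of 30 livers, grouped by diet on the horizontal axis, with 1 point per liver in library order and a black line at the median of each diet. *Slc39a4* sits at 266.3 to 475.9 on Cas-5% and 436.7 to 611.9 on Soy-10%, *Mt1* and *Mt2* fall into a low and a high set on Cas-20%, and *Slc30a1* stays between 375.6 and 545.6.

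The genes whose level over the 30 livers was most like that of *Slc39a4* were *Fgf21* (r = 0.80), *Gm11837* (r = 0.79), *Psat1* (r = 0.77), *Cyp39a1* (r = 0.76) and *Ggh* (r = 0.76), out of 11992 genes ranked by Pearson correlation of log2 values. *Fgf21* encodes a hepatokine released under protein restriction and *Psat1* an enzyme of serine synthesis. Median *Fgf21* counts were 162.1 on Cas-5% and 144.5 on Soy-10%, against 43.72 on Soy-20%, 21.38 on Cas-20% and 21.54 on Soy-20% + SAA. These correlations are descriptions across livers that share the diet contrast by which *Slc39a4* was picked.

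*Slc39a14* (ENSMUSG00000022094, chr14:70303469-70351425, minus strand) encodes ZIP14, the main inflammation-induced importer of hepatocytes, which also carries manganese and non-transferrin iron. Restriction of either protein left it uncalled. The counts on Cas-20% were 548.7, 615.7 and 677.7, those on Cas-5% were 411.9, 531.6 and 662.8, and the diets overlapped. The log2 change with casein restriction was -0.19 ± 0.10 (SE, edgeR adjusted p = 0.18). The counts were 448.5, 492.2 and 575.8 on Soy-20% and 456.9, 541.4 and 555.8 on Soy-10%, a log2 difference of 0.05 ± 0.07 (adjusted p = 0.86).

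Over all 5 diets *Slc39a14* was called different by edgeR (adjusted p = 0.014, as were 43.4% of the 12561 genes tested), and the low values lay in Soy-20% + SAA. There, libraries 1 and 2 held 563.8 and 555.4 normalized counts, and libraries 3 to 6 held 437.6, 321, 374.7 and 330. The latter are the 4 libraries with a GC slope, and the last 200 bases of *Slc39a14* are 26.5% GC against a median of 40.0% over genes. Without them the test over 5 diets no longer passed (adjusted p = 0.093). Against Soy-20% + SAA, Soy-10% was 0.28 ± 0.14 higher on the log2 scale (adjusted p = 0.17), and 0.11 lower without these libraries and 0.05 lower with the GC slope as a covariate, neither passing the test. Against Cas-20% the difference of Soy-20% + SAA was -0.52 ± 0.14 (adjusted p = 0.057), and it was -0.13 without these libraries (adjusted p = 0.84) and -0.19 with the covariate (adjusted p = 0.39).

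*Mt1* (ENSMUSG00000031765, chr8:94179082-94180327, plus strand) and *Mt2* (ENSMUSG00000031762, chr8:94172664-94173568, plus strand) encode the metallothioneins made in most tissues, and their promoters are shown above. Their transcripts are distinct enough for 3′ counting, with the longest identical run 20 bases overall and 12 bases in the last 200. On Cas-20% the *Mt1* counts were 188.2, 209.7 and 181 in livers 1 to 3, and 2436.4, 1509.6 and 1980 in livers 4 to 6. The *Mt2* counts were 50.06, 87.12 and 46.02 in the former, and 927.7, 524.8 and 823.9 in the latter. Metallothionein levels in single livers on the control casein diet thus spread more widely than the medians of the 5 diets, although medians vary less than single livers by nature. The metallothionein levels split along the same sets of libraries, whose correlations over the other genes were lower between than within sets.

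On Cas-5% both transcripts lay between the Cas-20% sets. *Mt1* was 344.9, 480 and 545.2 (lowest, median and highest) and *Mt2* was 99.92, 189.1 and 219.2. The edgeR log2 change with casein restriction was -1.19 ± 0.55 (SE) for *Mt1* (adjusted p = 0.12) and -1.18 ± 0.59 for *Mt2* (adjusted p = 0.16), so neither passed the test. The direction depended on which control livers were used. Without Cas-20% libraries 1 to 3 the log2 changes were -2.07 and -2.08, and without libraries 4 to 6 they were 1.28 and 1.55. These leave-outs were chosen after the values had been seen and carry no test. Other genes differed between the same sets. The clock genes *Arntl* and *Dbp* were at 44.05 to 70.56 and 532.8 to 666.8 normalized counts in libraries 1 to 3 and 15.93 to 22.15 and 1140 to 1348 in libraries 4 to 6. *Acot3* and *Cyp4a14*, genes of fatty acid metabolism, were at 12.27 to 26.03 and 343.6 to 970.5 in the former and 188.2 to 395.3 and 3860 to 6843 in the latter. *Arntl* also split on Soy-20% + SAA (30.01 to 39.75 in libraries 1 to 3 and 1.542 to 5.75 in libraries 4 to 6). So did *Dbp* (485.8 to 693.7 and 895.1 to 960.7) and *Cyp4a14* (1311 to 4061 and 7730 to 8723), whereas *Acot3* and *Mt1* overlapped. Libraries 4 to 6 of that diet are among those with a GC slope. The part of these differences in the result was not tested.

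On the soy diets *Mt1* was highest with added sulfur amino acids. The *Mt1* counts were 344.6, 723.9 and 1126.1 on Soy-20% + SAA, 157.9, 332.8 and 561.7 on Soy-20%, and 321.5, 436.2 and 530.4 on Soy-10%. The diets overlapped, although 5 of 6 Soy-20% + SAA livers were above the highest Soy-10% liver. *Mt1* fell 1.74-fold on Soy-10% against Soy-20% + SAA (log2 -0.80 ± 0.23 SE, edgeR adjusted p = 0.029, where 17% of the 11983 genes tested were called and 8.47% called lower). The call was lost with the GC slope as a covariate (log2 -0.73, adjusted p = 0.18). It held without libraries 3 to 6 (log2 -0.90, adjusted p = 0.023), which leaves 2 Soy-20% + SAA livers and where 2.54% of 12483 genes were called. It was also lost on leaving out any 1 of Soy-20% + SAA libraries 5 and 6 or Soy-10% libraries 3 to 6, where the adjusted p was 0.052 to 0.068, and in a fit of all 30 livers (adjusted p = 0.2).

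*Mt2* had the same order of medians, at 137.5, 236.4 and 340.2 on Soy-20% + SAA, 54.75, 124 and 161.8 on Soy-20%, and 91.99, 150.1 and 222.3 on Soy-10%. Its difference on Soy-10% against Soy-20% + SAA was -0.68 ± 0.24 on the log2 scale (edgeR adjusted p = 0.061). It was -0.57 with the GC slope as a covariate (adjusted p = 0.33) and -0.75 without libraries 3 to 6 (adjusted p = 0.17). Adding sulfur amino acids to Soy-20% went with values 2.19-fold as high for *Mt1* (log2 1.13 ± 0.29, edgeR adjusted p = 0.066) and 2.09-fold as high for *Mt2* (log2 1.06 ± 0.26, adjusted p = 0.065). Neither was called, in a comparison where 0.00838% of 11932 genes were. DESeq2 called both (adjusted p = 0.0053 and 0.0045), and its share of calls over all genes was not taken. With the GC slope as a covariate the edgeR log2 differences were 1.03 for *Mt1* and 0.96 for *Mt2* (adjusted p = 0.41 and 0.4). Without Soy-20% + SAA libraries 3 to 6 they were 1.24 and 1.13 (edgeR adjusted p = 0.51 for each), with 2 supplemented livers left. Against Soy-20%, the log2 differences on Soy-10% were 0.34 ± 0.21 for *Mt1* (adjusted p = 0.56) and 0.39 ± 0.21 for *Mt2* (adjusted p = 0.49), a comparison in which 0.866% of 11897 genes were called.

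*Slc30a1* (ENSMUSG00000037434, chr1:191906767-191913247, plus strand) encodes ZnT1, which exports zinc across the plasma membrane and is a textbook MTF-1 target. Its counts ranged from 375.6 to 545.6 over the 30 livers, and the medians of the diets from 430.6 to 464. No comparison called it (edgeR adjusted p = 0.97 over 5 diets), and the log2 difference was 0.02 ± 0.08 in casein restriction and -0.03 ± 0.10 on Soy-10% against Soy-20% + SAA. In Cas-20% livers 4 to 6, where *Mt1* was high, *Slc30a1* was 488.4, 418.2 and 526, overlapping livers 1 to 3 (472.6, 393.1 and 437.7).

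*Slc30a10* (ENSMUSG00000026614, chr1:185454848-185468762, plus strand) encodes ZnT10, which is known as an exporter of manganese from hepatocytes. On Cas-20% its counts were 472.6, 376.9 and 468.3 in livers 1 to 3 and 280.9, 245 and 275.7 in livers 4 to 6, the reverse of the metallothionein order. They were 271.6, 371.3 and 445.6 on Cas-5% and 305.6, 329.4 and 454 on Soy-10%. With the soy controls they were 331.6, 382.9 and 421.1 (supplemented) and 314.5, 419.7 and 548.6 (not supplemented), so the diets overlapped. No diet comparison called *Slc30a10* (edgeR adjusted p = 0.52 over 5 diets), and the log2 difference in casein restriction was 0.06 ± 0.16, which became 0.45 and -0.27 without the former and the latter Cas-20% set. The largest log2 difference between a pair of diets compared was -0.25 ± 0.12 on Soy-10% against Soy-20% (adjusted p = 0.41).

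**Figure D2:**
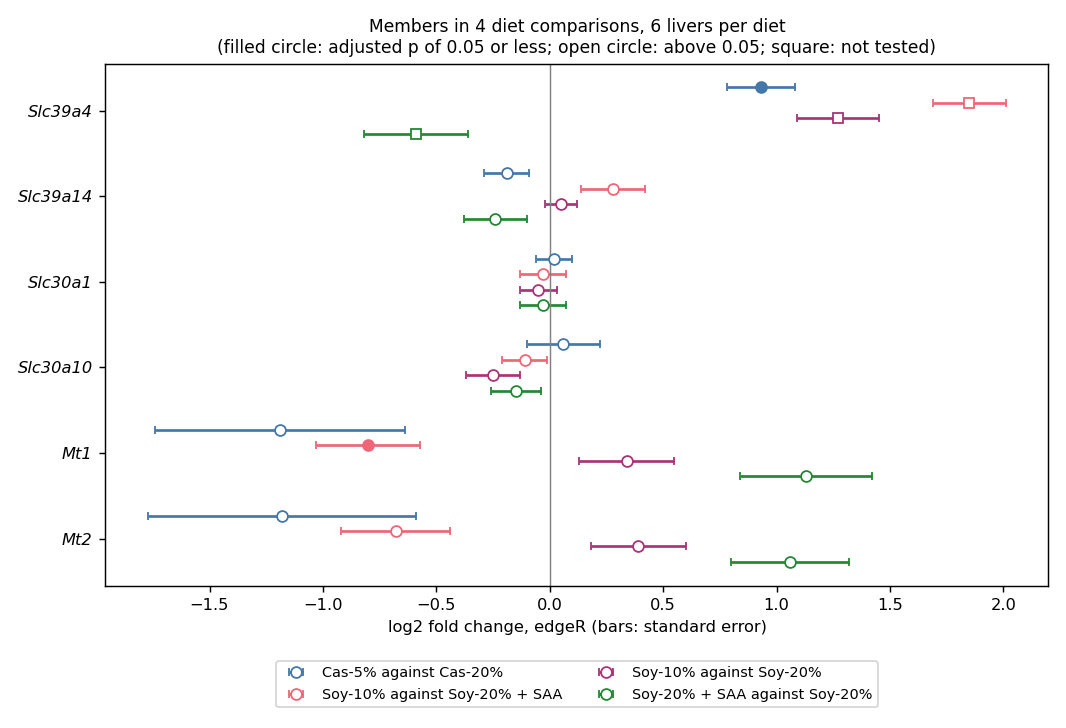
Log2 fold changes of the 6 genes in 4 diet comparisons of 6 against 6 livers (points, with standard errors from edgeR as bars), where filled circles passed an adjusted p of 0.05, open circles did not, and squares were not tested. *Slc39a4* lies at 0.93 in casein and at 1.85 and 1.27 in soy, and the *Mt1* and *Mt2* points lie on opposite sides of 0 for the 2 soy controls.

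Compared directly between protein sources, the effect of restriction on *Slc39a14* differed by -0.47 ± 0.18 on the log2 scale (casein minus soy, edgeR interaction, adjusted p = 0.09), and those on *Mt1* and *Mt2* by -0.40 ± 0.66 and -0.50 ± 0.72 (adjusted p = 0.75 and 0.71). For *Slc39a14* the value was -0.25 when Soy-20% was the soy control, -0.19 under the GC covariate and -0.09 without Soy-20% + SAA libraries 3 to 6. For *Mt1* and *Mt2* it was -1.54 and -1.57 when Soy-20% served as control, -1.27 and -1.39 without Cas-20% libraries 1 to 3, and 2.09 and 2.24 without libraries 4 to 6. None of the 5 genes tested passed in edgeR or DESeq2, where 8.69% of 12532 genes did in edgeR; 1 of them, *Slc39a14*, had an unadjusted p under 0.05, as 26% of genes had. Between the restricted diets, Soy-10% and Cas-5%, none of these 5 genes was called either or had an unadjusted p under 0.05, where 10.7% of 12041 genes were called and 25% had such a p, and *Mt1* differed by -0.12 ± 0.12 and *Mt2* by -0.26 ± 0.18. Soy-20% + SAA and Cas-20%, which are matched in sulfur amino acids, differed by -0.52 ± 0.60 in *Mt1* and -0.75 ± 0.64 in *Mt2* (adjusted p = 0.62 and 0.48, where 2.43% of 11988 genes were called). Here too the direction followed the Cas-20% set, with -1.39 and -1.65 without libraries 1 to 3 and 1.97 and 1.99 without libraries 4 to 6. Over all 5 diets *Mt1* and *Mt2* were called by edgeR (adjusted p = 0.015 and 0.017), as were 43.4% of the 12561 genes tested. Neither was called on leaving out Cas-20% liver 4 (0.068 and 0.097) or liver 6 (0.051 and 0.074).

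Among mice on the same diet the metallothioneins varied together. After subtraction of each diet mean, log2 *Mt1* and *Mt2* correlated with r = 0.97 and rho = 0.88 over 30 livers (permutation within diets, adjusted p = 0.00015 over 15 pairs of genes, which rests on 1e-05, the smallest p that 100000 permutations can give; r = 0.94 without the 2 farthest livers). Since the Cas-20% livers form separate sets, the relation was recomputed over the other 24 livers, where r was 0.87 and rho 0.76 (permutation adjusted p = 0.0003) and r without the 2 farthest was 0.79. *Mt1* and *Slc30a10* ran against each other over 30 livers (r = -0.72, rho = -0.65, permutation adjusted p = 0.0089; r = -0.69 without the 2 farthest livers), and r was -0.47 without Cas-20% (adjusted p = 0.098), the same sign without passing. *Slc39a14* and *Slc30a1* correlated with r = 0.60 and rho = 0.51 (permutation adjusted p = 0.013), with r = 0.46 (adjusted p = 0.077) without the 2 farthest livers, and with r = 0.33 (adjusted p = 0.24) without the 4 GC-sloped libraries. No relation of *Slc39a4* with another of the 6 genes passed within diets (r from -0.30 to 0.27, permutation adjusted p from 0.22 to 0.61).

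**Figure D3:**
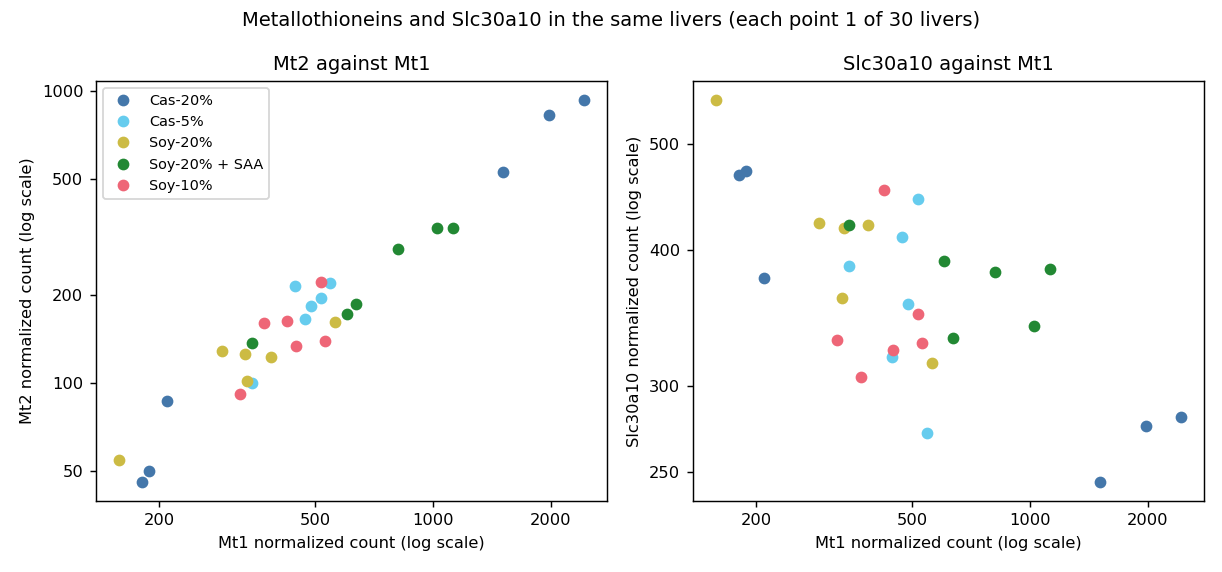
Normalized counts of *Mt2* (left) and *Slc30a10* (right) against *Mt1* in the same liver, both axes on a log scale, with 1 point per liver and colour for the diet. *Mt2* climbs with *Mt1* over the livers, and Cas-20% livers 4 to 6, with *Mt1* at 1509.6 to 2436.4, have *Slc30a10* at 245 to 280.9.

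The genes most like *Mt1* over the 30 livers were *Mt2* (r = 0.97), *Gm10804* (r = 0.74), *AI413582* (r = 0.74), *Hykk* (r = 0.74) and *Cpt1a* (r = 0.72). *Cpt1a* encodes the gatekeeper of mitochondrial fatty acid oxidation, and its median counts were 2555 on Soy-20% + SAA, 2324 on Cas-20%, 1946 on Cas-5%, 1876 on Soy-20% and 1848 on Soy-10%. These are descriptions and include the library sets on Cas-20%.

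A further 23 genes of zinc transport and metallothionein control were listed, of which 17 were in the table and 15 were tested. With casein restriction 1 rose and 1 fell (11.6% and 13.3% of all genes did), with a median log2 change of 0.02 against 0.02 over all genes. *Slc30a3*, which encodes ZnT3 and is known for loading zinc into synaptic vesicles, held 2.896, 5.756 and 6.135 normalized counts on Cas-20% and 22.01, 50.26 and 76.64 on Cas-5%, with no overlap, where 5.14% of genes separated upward. It rose 9.59-fold (log2 3.26 ± 0.34, edgeR adjusted p = 3.0e-06) from a low base. *Slc39a11*, which encodes the importer ZIP11, fell from 318.6, 379.1 and 390.5 to 234.5, 281.7 and 309.8, again with no overlap (log2 -0.41 ± 0.08, adjusted p = 0.0011), as did 7.73% of genes. *Mtf1* itself was at 0.02 ± 0.07 (adjusted p = 0.88).

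*Slc30a3* was also higher on Soy-10%. Its counts were 0, 3.835 and 9.584 on Soy-20% + SAA, 1.092, 7.484 and 11.79 on Soy-20%, and 9.499, 16.61 and 22.94 on Soy-10%. It rose 3.81-fold against Soy-20% + SAA (log2 1.93 ± 0.45, edgeR adjusted p = 0.012) and differed by 1.26 ± 0.36 against Soy-20% without passing (adjusted p = 0.12). Its level on Soy-10% was 3.0-fold below that on Cas-5% (log2 -1.59 ± 0.28, adjusted p = 0.0013), the opposite order to *Slc39a4*. Whether its rise differed between protein sources was not established (log2 difference 1.33 ± 0.64, adjusted p = 0.19).

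Against Soy-20% + SAA 3 of the 15 genes were called higher and 1 lower on Soy-10% (8.51% and 8.47% of all genes), with a median log2 difference of 0.07 against -0.01 over all genes. Besides *Slc30a3* these were *Slc30a5*, which supplies zinc to the secretory pathway (log2 0.80 ± 0.21, adjusted p = 0.019), *Slc39a1*, a plasma membrane importer (0.23 ± 0.07, adjusted p = 0.042), and *Slc39a10*, another importer, which was lower (-0.65 ± 0.21, adjusted p = 0.042). *Slc30a5* stood at 139.5 and 146.9 in Soy-20% + SAA libraries 1 and 2 and at 55 to 98.75 in libraries 3 to 6. None of the 15 was called by edgeR with the GC slope as a covariate (where 3.18% of genes were called and 3 of the 15 had an unadjusted p under 0.05) or without libraries 3 to 6 (2.54% and 1), which leaves 2 control livers. Without them the log2 difference was 0.20 for *Slc39a1*, -0.51 for *Slc39a10*, 1.35 for *Slc30a3* and 0.21 for *Slc30a5*. Against Soy-20% none was called by edgeR and 1 by DESeq2, and 1 had an unadjusted p under 0.05 in edgeR, where 12.3% of genes had.

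**Figure D4:**
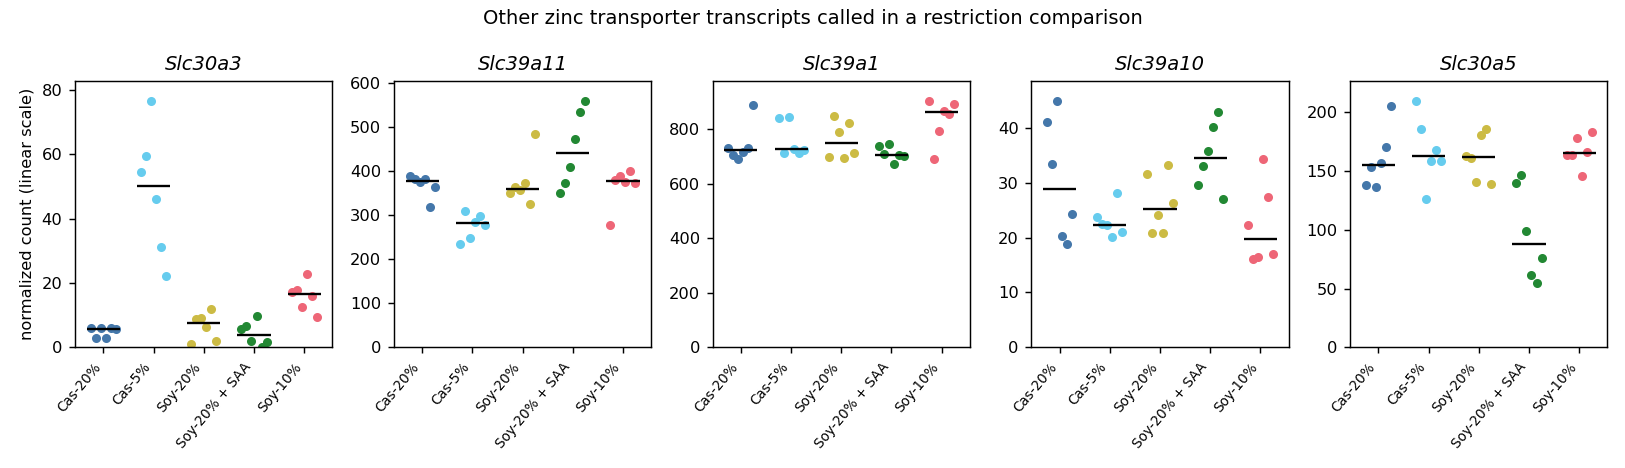
Normalized counts (linear scale from 0) of the 5 other zinc transporter genes called in a restriction comparison, with 1 point per liver in library order and a black line at the median of each diet. *Slc30a3* reaches 22.01 to 76.64 on Cas-5% and at most 22.94 elsewhere, and *Slc30a5* is lowest in Soy-20% + SAA libraries 3 to 6.

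Signals known to act on these genes were read from 4 further lists. Of 9 genes of copper handling, the other metal bound by metallothionein, 3 rose and 1 fell with casein restriction, in which 11.6% of all genes rose and 13.3% fell. The copper chaperone gene *Atox1* fell (log2 -0.52 ± 0.08, edgeR adjusted p = 0.00021) and the ceruloplasmin gene *Cp* rose (0.49 ± 0.07, adjusted p = 0.00012). Against the same shares, of 20 acute phase genes 3 rose (*Itih3*, *Itih4* and *Apcs*) and 7 fell, with *Orm1* 10.4-fold lower and *Saa2* 3.73-fold lower. *Slc39a14*, itself an inflammation-induced gene, was not called. Of 8 glucocorticoid targets, again against 11.6% and 13.3% of all genes, 3 rose, among them *Fkbp5* (0.70 ± 0.19), and 2 fell, among them *Tat* (-1.63 ± 0.26), while *Mt1* and *Mt2* were not called.

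On Soy-10% against Soy-20% + SAA, where 8.51% of all genes rose and 8.47% fell, 4 of 9 copper genes rose and none fell. None of the 9 was called by edgeR with the GC covariate (3 had an unadjusted p under 0.05) or without Soy-20% + SAA libraries 3 to 6 (2 had), where in the latter the log2 difference went from 0.80 to 0.30 for *Cox17* and from 0.41 to 0.54 for *Slc31a2*. In the same comparison 1 of 20 acute phase genes rose (none in either of these settings), and none of 8 glucocorticoid targets was called by edgeR (1 had an unadjusted p under 0.05, as 33.9% of genes had). *Mt1* was called lower there, with the limits given above.

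ATF4 is the factor that amino acid shortage activates. Of 13 of its targets 8 rose and 1 fell with casein restriction (11.6% and 13.3% of all genes), with a median log2 change of 0.69 against 0.02 over all genes. On Soy-10%, 3 of 12 tested rose, 1 fell and 8 were not called against Soy-20% + SAA (8.51% and 8.47% of all genes), and 3 of 11 tested rose and 8 were not called against Soy-20% (0.319% of all genes rose). Without Soy-20% + SAA libraries 3 to 6, 2 of 11 rose and none fell against the remaining Soy-20% + SAA livers (2.54% of 12483 genes were called). With the GC slope as a covariate, 3 of 12 rose and none fell (3.18% of 11983 genes were called). *Asns*, which makes asparagine, rose 13.6-fold in casein and 6.97-fold and 6.92-fold in soy, with no overlap in any of these comparisons. In these comparisons 5.14%, 2.9% and 0.597% of all genes separated upward.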

How the data were processed

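Total liver RNA was made into 3′ libraries with the Lexogen QuantSeq kit, in which each transcript gives reads from its end only, so counts do not scale with transcript length. The authors deposited raw counts per gene and normalized counts for 30 libraries on GRCm38 (mm10), and the processing notes name R 4.0.3 and DESeq2 1.30. The authors report mapping and read counting by the Lexogen QuantSeq pipeline on the Bluebee platform. The aligner, the counter and the annotation release within it are not named in the sources used here. The deposited normalized counts, a library-scaled signal, equalled the raw counts divided by median-of-ratios size factors (0.759 to 1.297). The table held genes with at least 90 counts in total. Of 1718 genes lacking a symbol, 1684 were named from GENCODE M21.

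The raw counts were tested with edgeR 4.0.16 (quasi-likelihood F test, filterByExpr, TMM), with 12 livers per comparison, 24 for the interaction and 30 for the test over 5 diets, and with Benjamini-Hochberg adjustment over all genes tested (threshold 0.05). Fold changes carry edgeR standard errors. Relations within diets used log2(normalized count + 1) and 100000 two-sided permutations. Precision is set by 6 mice per diet; each mouse gave 1 library. Scripts were tested on simulated data. The members and gene lists were chosen with earlier results of these data known. Genes outside the 6 were named by a rule: other zinc genes called in a restriction comparison, up to 4 genes per further list with the smallest adjusted p in those comparisons, and the 5 most correlated with *Slc39a4* and with *Mt1*. *Arntl*, *Dbp*, *Acot3*, *Cyp4a14*, *Slc5a1*, *Itih3*, *Itih4*, *Apcs*, the acinar genes and the other single marker genes were chosen after their values were seen. Alternatives were DESeq2 1.42.0, its size factors, no filter on low counts, all 30 livers in 1 fit, a replicate block, a GC slope covariate, leaving out each library, and leaving out library sets, of which the Cas-20% sets, and the leave-outs for the copper and other further lists, were added after seeing the data. Markers of other cell types were read as summed CPM.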

Additional observations from a re-analysis of the deposited data

Results flagged for a closer look

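In 55 groups of 6 livers (11 zinc genes in 5 diets), 5 had a highest or lowest liver that stood far from the rest by Dixon's criterion, and chance alone marks about 5% of groups. *Slc30a10* was 454 normalized counts in Soy-10% liver 6, and the next liver held 349. *Slc39a11* had such a liver in 3 diets, at 319 in Cas-20% liver 5 (next 365), 485 in Soy-20% liver 6 (next 373) and 279 in Soy-10% liver 1 (next 374). *Slc39a1* was 889 in Cas-20% liver 6, and the next liver held 731. None of the *Slc39a4*, *Slc39a14*, *Slc30a1*, *Mt1* or *Mt2* values met the criterion, the *Mt1* and *Mt2* split on Cas-20% included, since it divides the livers evenly.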

How the results depend on the processing

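*Slc39a4* kept its direction in casein restriction under all settings run and its call under all that were tested (the Cas-20% sets were not), at 0.85 to 1.01 on leaving out 1 library; its interaction value moved to -0.34 with Soy-20% as control. The Cas-20% sets decided several directions. Without libraries 1 to 3 the log2 differences were -0.06 for *Slc30a1* and 0.45 for *Slc30a10* in casein restriction, 0.48 for *Slc30a10* in Soy-20% + SAA against Cas-20%, and -0.02 and 0.56 for *Slc30a1* and *Slc30a10* in the interaction. Without libraries 4 to 6 they were 1.28, 1.55 and -0.27 for *Mt1*, *Mt2* and *Slc30a10* in casein restriction. In the same setting they were 1.97, 1.99, 0.05 and -0.23 for *Mt1*, *Mt2*, *Slc30a1* and *Slc30a10* against Cas-20%, and 2.09, 2.24 and -0.15 for *Mt1*, *Mt2* and *Slc30a10* in the interaction. With the GC covariate, and without Soy-20% + SAA libraries 3 to 6, *Slc39a14* became -0.05 and -0.11 on Soy-10% against Soy-20% + SAA, and 0.11 and 0.15 on Soy-20% + SAA against Soy-20%. *Slc30a1* became 0.19 and 0.21 against Soy-20%, and 0.18 and 0.21 against Cas-20%. The other zinc genes called higher and lower were then 0 and 0, *Mt1* on Soy-10% was -0.73 and lost its call with the covariate, and the *Slc39a14* test over 5 diets without the libraries gave 0.093.

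With all 30 livers in 1 fit, *Mt1* passed in casein restriction (-1.20, adjusted p = 0.048) and no longer on Soy-10% against Soy-20% + SAA (-0.80, adjusted p = 0.2), *Slc39a14* passed against Cas-20% (-0.51), and the zinc genes called lower were 2 in casein and 3 in soy. DESeq2 called *Mt2* on Soy-10% (-0.68), *Mt1* and *Mt2* with added sulfur amino acids (1.14 and 1.07) and *Slc39a14* against Cas-20% (-0.51), and counted 2 zinc genes lower in casein, as did its size factors, and 1 higher against Soy-20%. Where no value shows it, the cause was not tested.

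The replicate numbers did not pair the livers (same-numbered livers correlated at -0.19 to 0.23, median 0.01, and 7 of 30 correlated best with their own number). With the replicate block *Mt1* was 0.16 in Soy-20% + SAA against Cas-20%, the adjusted p over 5 diets was 0.094 for *Mt1* and 0.097 for *Mt2*, and no other call on the 6 genes changed.

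Leaving out 1 library gave, in casein restriction, -1.42 to -0.78 for *Mt1* (called without Cas-20% library 1 or 3), -0.27 to -0.13 for *Slc39a14* (called without Cas-5% library 1), -0.03 to 0.07 for *Slc30a1* and -0.03 to 0.15 for *Slc30a10*, with 1 to 2 zinc genes lower. On Soy-10% against Soy-20% + SAA it gave -0.95 to -0.65 for *Mt1*, -0.82 to -0.56 for *Mt2* (called without Soy-20% + SAA library 1 or 3 or Soy-10% library 1), 0.21 to 0.37 for *Slc39a14* (called without Soy-20% + SAA library 1) and -0.10 to 0.03 for *Slc30a1*, with 0 to 2 zinc genes lower. On Soy-20% + SAA against Soy-20% it gave 0.98 to 1.33 for *Mt1* and 0.92 to 1.19 for *Mt2* (both called without Soy-20% + SAA library 1 or 2) and -0.09 to 0.03 for *Slc30a1*. Against Cas-20% it gave -0.61 to -0.44 for *Slc39a14* (called without Soy-20% + SAA library 1 or 2) and -0.09 to 0.02 for *Slc30a1*. It gave -0.12 to 0.02 for *Slc39a14* on Soy-10% against Cas-5%. In the interaction it gave -0.62 to 0.02 for *Mt1*, -0.57 to -0.40 for *Slc39a14* (called without Cas-5% library 1 or Soy-20% + SAA library 1 or 2) and -0.02 to 0.11 for *Slc30a1*. The adjusted p over 5 diets ran from 0.0027 to 0.068 for *Mt1* and from 0.0024 to 0.097 for *Mt2*.

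Of the relations, *Slc39a4* with *Slc39a14* turned to 0.15 and 0.10 and with *Slc30a1* to 0.03 and 0.11 without the GC-sloped libraries and without these and Cas-20%, and *Slc39a4* with *Mt2* to -0.02 without both. Without the GC-sloped libraries *Slc39a14* correlated with *Mt1* (r = 0.40), *Mt2* (0.44) and *Slc30a10* (-0.55), with permutation adjusted p = 0.048, 0.03 and 0.021. The rank correlation with *Mt1* did not pass (rho = 0.36, permutation adjusted p = 0.14). Without Cas-20% as well, r was 0.20, 0.29 and -0.45, and none passed (permutation adjusted p = 0.59, 0.51 and 0.32). With 6 mice per diet, a p above the threshold does not show equal levels.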

Other observations

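Pancreatic acinar transcripts in Soy-10% liver 4 reached 835.3 normalized counts for *Cpb1*, 1317 for *Prss2* and 1622 for *Ctrb1*, against at most 2.896 for each in any other liver. In this liver *Mt1* was 371.3 and *Mt2* 160.6, inside the ranges of their diet, while *Slc30a1* (384.8) and *Slc30a10* (305.6) were the lowest of the 6.

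Defining markers of kidney tubule were almost absent, with 1 of 6 in the table and at most 2.217 CPM. Cholangiocyte markers, 4 of 5 in the table, summed to 16.02 to 20.5 CPM on Soy-10% and 17.27 to 40 CPM on the other diets. *Sox9* carried the sum, with a median of 172 normalized counts on Soy-10% and 226.5 to 341.5 on the other diets. *Krt19*, *Krt7* and *Epcam* held 2.905 to 18.77 normalized counts on Soy-10% and overlapped each other diet. The part of these markers in the *Slc39a4* difference was not tested.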
